A study of Mus musculus with 6 samples.

Results

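The catalytic head of mitochondrial ATP synthase was examined through 7 genes in mouse blastocysts cultured with oviductal extracellular vesicles (oEV). The genes were chosen by symbol for their place in the enzyme. They are *Atp5a1* and *Atp5b* (the alpha and beta subunits), *Atp5c1*, *Atp5d* and *Atp5e* (gamma, delta and epsilon), *Atp5o* (the oligomycin sensitivity-conferring protein, OSCP) and *Atpif1* (the inhibitory factor). Their Ensembl identifiers occupied 8 of the 55774 entries of the expression table, since *Atp5o* is listed under 2 identifiers. The second of these, a read-through gene model, was listed at 0 in every library, and *Atp5o* below refers to the first. All 7 genes were expressed highly enough to be tested.

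RNA was sequenced from 6 pools of 10 wild-type (WT) blastocysts, 3 pools cultured with vesicles from women with endometriosis (oEV-EMT) and 3 with vesicles from women without it (oEV-ctrl). The embryos came from the oviducts of ICR females aged 6 to 8 weeks, were collected at the 2-cell stage, and were cultured for 75 h in CZB medium with the vesicles, so that every group received human vesicles and no untreated blastocysts are among the libraries. The sample labels give uterine fibroids as the condition of the control donors, whereas the methods of the study name a different gynaecological condition. Nothing in the labels says whether pools of a group came from separate cultures or separate vesicle donors, and p-values therefore measure only the spread between these libraries.

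ATP synthase is a rotary motor in the inner mitochondrial membrane. Protons that pass through its membrane part, Fo, turn the central stalk of gamma, delta and epsilon inside a ring in which alpha and beta subunits alternate, and the catalytic sites, which lie mainly on beta, release ATP. OSCP sits on top of the head and joins it to the peripheral stalk, which keeps the ring from turning with the rotor. The inhibitory factor binds the head when the membrane potential collapses and stops the enzyme from running backwards and consuming ATP. In the preimplantation embryo, oxidative phosphorylation is a main source of ATP from the first cleavages on. Glycolysis gains in share at the blastocyst stage, when the sodium pump of the trophectoderm consumes ATP to fill the blastocoel.

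Expression values were FPKM, in which fragments are counted per transcript length and per library size. Levels of different genes can thus be compared per length, as far as the length assigned to each gene holds. The values were compared between groups as log2(FPKM + 1) with limma. Fold changes are given as oEV-EMT minus oEV-ctrl on that scale, each with its standard error (SE). Over the 11924 genes tested, the median log2 fold change was 0.17 in the values as deposited and between -0.05 and 0.24 after other scalings of the libraries, so that a fold change relative to this median is given as well. The sum of FPKM per library was 1293200 to 1551600, and an unannotated entry, new_gene48, took 15.3% to 31.5% of it. The smallest step between values placed the libraries within a 2.09-fold range of relative depth, and neither group was the deeper one throughout. On that reading, the lowest member value stood on 1841 steps, which would be a counting error of 2.33% or less, but whether a step is 1 fragment is not known.

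None of the 7 genes passed an adjusted p-value of 0.05 together with an absolute log2 fold change of 1. The same was true of every tested gene (0%, smallest adjusted p = 0.0934, limma with Benjamini-Hochberg adjustment). The differences of the head genes below are therefore described by their size, without any gene being called. In the values as deposited, *Atpif1* was the 1 gene whose oEV-EMT values all lay below the oEV-ctrl values, 25.1% lower on average. *Atp5e* was 26.5% lower with overlapping groups, and the alpha, beta, gamma and OSCP genes had ratios of group means between 1.01 and 1.08. At an unadjusted p-value of 0.05, 1 of the 7 genes was counted, *Atpif1*, against 15.4% of all tested genes in either direction and 2.55% in the lower direction. This count depended on the scaling. It was 2 after median-of-ratios scaling, with *Atp5e*, and 3 after upper quartile scaling, with *Atp5e* and *Atp5d*. After either scaling to a total of 1000000 it was 0. The share of all tested genes under these scalings was not counted.

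**Figure D1:**
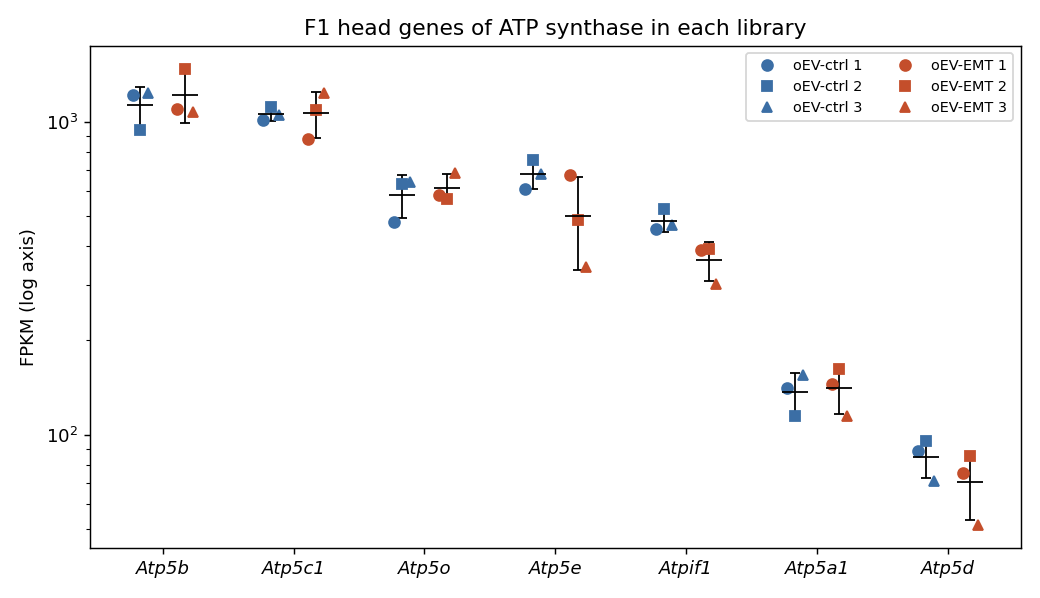
FPKM of the 7 F1 head genes in each library on a log axis, with blue symbols for oEV-ctrl, red symbols for oEV-EMT, a horizontal bar for the group mean and a vertical bar for the SD (n = 3). The genes span from 51.4 FPKM (*Atp5d*) to 1479.9 FPKM (*Atp5b*), and the groups are separate for *Atpif1* alone.

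The catalytic pair was at similar levels in both groups. *Atp5b* (ENSMUSG00000025393, chromosome 10 of GRCm38, 128083273 to 128090391, plus strand) encodes the beta subunit that carries out catalysis, and its FPKM was 1219.7, 939.8 and 1234.5 in the oEV-ctrl libraries and 1097, 1479.9 and 1079 in the oEV-EMT libraries. The highest and the lowest of these lay in different groups, and the ranges overlapped. The group means were 1131 ± 166 and 1219 ± 226 (SD, n = 3 each), with a log2 fold change of 0.10 (SE 0.20, 95% interval -0.35 to 0.55, adjusted p = 0.835 from limma).

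The alpha subunit gene *Atp5a1* (ENSMUSG00000025428, on chromosome 18) pairs with beta in the ring and holds nucleotides without turning them over. Its FPKM was 141, 115 and 155 in oEV-ctrl and 145, 162 and 114 in oEV-EMT. The groups covered nearly the same range, and the log2 fold change was 0.032 (SE 0.21, 95% interval -0.44 to 0.50, adjusted p = 0.954 from limma). Although both proteins enter the ring in equal number, the level of *Atp5a1* was 0.121 ± 0.00493 of that of *Atp5b* in oEV-ctrl and 0.116 ± 0.0144 in oEV-EMT (SD, n = 3 each). Of the 21 pairs of head genes, alpha and beta kept the tightest ratio from library to library, with a pooled within-group SD of 0.13 on the log2 scale. The other pairs lay between 0.18 and 0.52.

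Among the central stalk genes, the 3 members did not stand at the same place. *Atp5c1* (ENSMUSG00000025781, chromosome 2, 10056016 to 10080510, minus strand) encodes gamma, the shaft that turns inside the ring, and it had an FPKM of 1012, 1117 and 1054 in oEV-ctrl and 879, 1089 and 1241 in oEV-EMT. The oEV-EMT libraries held both the lowest and the highest value. The log2 fold change was -0.0014 (SE 0.19, 95% interval -0.42 to 0.42, adjusted p = 0.998 from limma).

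*Atp5d* (ENSMUSG00000003072, chromosome 10, 80138632 to 80145818, plus strand) encodes delta, part of the foot by which the shaft stands on the Fo ring. This was the lowest of the head genes, with 88.4, 95.5 and 71.1 FPKM in oEV-ctrl and 75.2, 85.3 and 51.4 FPKM in oEV-EMT. The lowest value was in oEV-EMT 3 and the highest in oEV-ctrl 2, and the groups overlapped. Its log2 fold change was -0.28 (SE 0.24, 95% interval -0.81 to 0.24, adjusted p = 0.596 from limma).

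*Atp5e* (ENSMUSG00000016252, chromosome 2, 174461072 to 174464105, minus strand) encodes epsilon, the smallest subunit of the head, which packs against gamma and delta. It had 609, 756 and 683 FPKM in oEV-ctrl and 676, 485 and 344 FPKM in oEV-EMT. The libraries oEV-EMT 2 and oEV-EMT 3 lay below every oEV-ctrl library, while oEV-EMT 1 lay among them. Group means were 682 ± 73.4 and 502 ± 167 (SD, n = 3 each), and the log2 fold change of -0.49 was the lowest of the 7 (SE 0.25, 95% interval -1.04 to 0.056, unadjusted p = 0.0737, adjusted p = 0.372, limma). Relative to all genes it was -0.66, and 4.01% of tested genes had a lower fold change. Its size and rank depended on the fit. Without oEV-EMT 3 it was -0.25, above *Atpif1* at -0.30, and with a transcript length offset it was -0.36, above *Atp5d* at -0.38.

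The coding sequence of *Atp5e* is shown because it is the member with the lowest fold change as reported and the only one whose transcripts share no 50-base stretch with another annotated gene, so that no copy of it competes for reads at that stretch length. It was read from 2 coding exons at chr2:174462503-174463996 on the minus strand of GRCm38 (GENCODE M21, transcript Atp5e-201). It runs for 159 bases, or 53 codons with the stop, in a transcript of 421 bases, and capitals mark the start and stop codons.
*Atp5e* coding sequence: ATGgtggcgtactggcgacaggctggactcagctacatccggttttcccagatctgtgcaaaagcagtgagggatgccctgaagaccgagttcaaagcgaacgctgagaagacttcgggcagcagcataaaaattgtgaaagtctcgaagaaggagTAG

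*Atp5o* (ENSMUSG00000022956, chromosome 16, 91925214 to 91931687, minus strand) encodes OSCP, which lies between the head and the peripheral stalk. Its FPKM was 478, 633 and 645 in oEV-ctrl and 585, 568 and 689 in oEV-EMT, with the lowest value in oEV-ctrl 1 and the highest in oEV-EMT 3. The groups overlapped. The log2 fold change was 0.076 (SE 0.19, 95% interval -0.35 to 0.51, adjusted p = 0.873 from limma). This value is less certain than the others, since 41.6% of the 50-base stretches of its transcripts occur in 4 other genes. The one of these with a clear level was the processed pseudogene Gm5436, with 105, 124 and 86.7 FPKM in oEV-ctrl and 114, 97.8 and 94.1 FPKM in oEV-EMT. With the values of the sharing genes added, the log2 fold change of *Atp5o* was 0.058.

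*Atpif1* (ENSMUSG00000054428, chromosome 4, 132530555 to 132533659, minus strand) encodes the inhibitory factor. It had 454, 526 and 467 FPKM in oEV-ctrl and 389.9, 391 and 302 FPKM in oEV-EMT. Every oEV-EMT library lay below every oEV-ctrl library, as in 4.34% of all tested genes. In the values as deposited, no other head gene separated the groups in either direction. Thus 1 of 7 did, against 22.4% of all tested genes, and separation after other scalings was not counted. The means were 482 ± 38.7 and 361 ± 50.9 (SD, n = 3 each). This is a log2 fold change of -0.42 (SE 0.19, 95% interval -0.84 to -0.0059, unadjusted p = 0.0474, adjusted p = 0.319, limma), and 5.32% of tested genes had a lower one. The exact two-sided permutation test gave p = 0.1, the smallest that 3 libraries against 3 allow.

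The first coding exon of *Atpif1* and part of the second lie opposite an annotated antisense gene, Gm12999. The first 300 of its 321 coding bases are therefore printed with the 137 bases opposite an exon of Gm12999 in capitals. They were read from 3 coding exons at chr4:132530682-132533568 on the minus strand of GRCm38 (GENCODE M21, transcript Atpif1-201).
*Atpif1* coding sequence: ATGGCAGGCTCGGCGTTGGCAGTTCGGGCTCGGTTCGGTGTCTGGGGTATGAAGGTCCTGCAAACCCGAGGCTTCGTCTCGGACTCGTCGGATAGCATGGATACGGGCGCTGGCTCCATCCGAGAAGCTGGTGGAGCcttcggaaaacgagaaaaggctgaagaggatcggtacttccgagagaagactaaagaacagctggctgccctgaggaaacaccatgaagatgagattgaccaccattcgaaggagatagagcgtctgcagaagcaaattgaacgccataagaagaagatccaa

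The antisense gene had 9.35, 13.5 and 12.3 FPKM in oEV-ctrl and 15.1, 15.5 and 13.97 FPKM in oEV-EMT, higher in every oEV-EMT library. The library preparation as described does not keep the strand, so reads of *Atpif1* and Gm12999 over the shared stretch cannot be told apart. Gm12999 was far below *Atpif1* in level, and with its values added the log2 fold change of *Atpif1* was -0.40 (unadjusted p = 0.0581, limma).

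In their levels the 7 genes spread over a wide range although they serve 1 complex. By mean FPKM over the 6 libraries the order was *Atp5b* (1175), *Atp5c1* (1065), *Atp5o* (599.6), *Atp5e* (592), *Atpif1* (422), *Atp5a1* (139) and *Atp5d* (77.8). Some neighbours in this order were not separated. *Atp5b* was above *Atp5c1* in 4 of the 6 libraries, and *Atp5o* was above *Atp5e* in 2 of the 6. Each of the other neighbours kept its order in 6 of the 6 libraries, and the widest step, between *Atpif1* and *Atp5a1*, was 3.02-fold. *Atpif1*, *Atp5a1* and *Atp5d* held the fifth, sixth and last place in every library. The sum of the 7 genes was 4002, 4182 and 4309 FPKM in oEV-ctrl and 3848, 4260 and 3821 FPKM in oEV-EMT, with overlapping groups.

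Ratios between genes of the same library do not depend on the scaling between libraries, and all 21 pairs were compared. The level of *Atpif1* relative to *Atp5b*, the inhibitor against the subunit it binds, was 0.372, 0.560 and 0.378 in oEV-ctrl and 0.355, 0.264 and 0.280 in oEV-EMT. All oEV-EMT ratios were lower, but oEV-EMT 1 was close to the lowest oEV-ctrl ratio. The mean ratio was 0.437 ± 0.107 in oEV-ctrl and 0.300 ± 0.0486 in oEV-EMT (SD, n = 3 each). The difference on the log2 scale was -0.53 (exact permutation test, p = 0.1, 0.7 after Benjamini-Hochberg adjustment over the 21 pairs). Without oEV-ctrl 2 it was -0.33.

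Among the 21 pairs, 3 did not overlap between groups, and each of them set *Atpif1* against another gene, namely *Atp5a1*, *Atp5b* or *Atp5o*. The 3 pairs share the values of *Atpif1* and are not separate results. If libraries are exchangeable, any 1 pair lacks overlap with a probability of 0.1. The share over pairs of other genes was not counted, so the count is only a description. The ratio of *Atp5a1* to *Atpif1* was higher in oEV-EMT by 0.46 on the log2 scale, and that of *Atp5o* to *Atpif1* by 0.50 (exact permutation test, p = 0.1 each). No pair passed an adjusted p-value of 0.05, which 3 libraries against 3 cannot reach over 21 pairs (smallest adjusted p = 0.7, exact permutation test). The ratio of *Atpif1* to the other 2 low members overlapped. The difference was 0.14 for *Atp5d* over *Atpif1* and -0.068 for *Atp5e* over *Atpif1* (exact permutation test, p = 0.5 and 0.9).

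**Figure D2:**
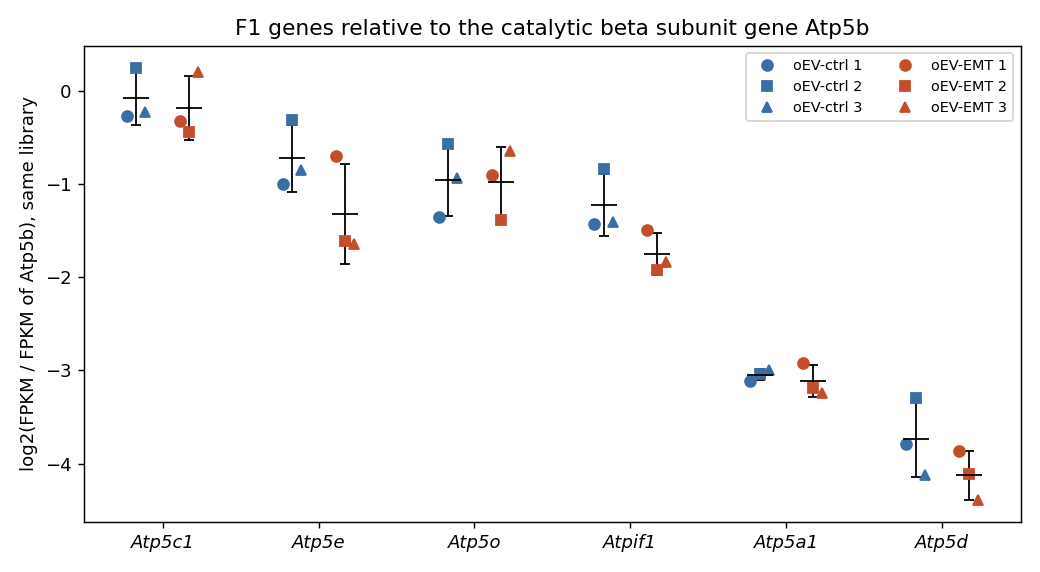
Log2 ratio of the FPKM of each other head gene to that of *Atp5b* in the same library, with a horizontal bar for the group mean and a vertical bar for the SD (n = 3). The *Atp5a1* ratios lie close together between -3.24 and -2.92, and for *Atpif1* alone the oEV-EMT ratios are all below the oEV-ctrl ratios, with a mean difference of -0.53.

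Compared with the rest of the transcriptome, the head genes as a list lay a little low. The median of their log2 fold changes was -0.0014, a relative median of -0.17, and 7 of the 7 lay below that median, where 50% of all genes do by construction. This count depended on the fit. Without a filter on low values the relative median was -0.024, and *Atp5b*, *Atp5o* and *Atp5a1* lay above the median of all genes by 0.080, 0.054 and 0.0097. *Atp5b* also lay above it with libraries weighted by quality (0.10) and without oEV-ctrl 1 (0.014) or oEV-EMT 1 (0.032). Their relative values were -0.069 for *Atp5b*, -0.095 for *Atp5o*, -0.14 for *Atp5a1*, -0.17 for *Atp5c1*, -0.46 for *Atp5d*, -0.59 for *Atpif1* and -0.66 for *Atp5e*. The mean log2 level of the 7 genes above the median of its library was 5.76, 5.84 and 5.69 in oEV-ctrl and 5.34, 5.56 and 5.39 in oEV-EMT. It was lower in every oEV-EMT library, but without subtraction of the library median the mean log2 level was 8.69, 8.77 and 8.77 in oEV-ctrl and 8.65, 8.73 and 8.43 in oEV-EMT, which overlapped. Since the members share 1 complex and were not sampled, no test is given for either. In pools of whole blastocysts, fewer cells of a type and less RNA per cell cannot be told apart.

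The nearest relatives of the head within the enzyme are the 13 genes of Fo, the peripheral stalk and associated subunits, which were all tested. The median fold change of these genes was -0.36 on the log2 scale, which is -0.54 once the median of all genes is subtracted, with 12 of the 13 below the median of all genes, 5 lower and 1 higher in oEV-EMT without overlap, against 4.34% and 18.1% of all tested genes. The 11 of these genes that are nuclear, as all head genes are, had a median of -0.22, or a relative median of -0.39, with 3 lower without overlap. The lowest were *Atp5k* (subunit e), *Atp5l* (subunit g) and *Atp5j* (coupling factor 6), at -1.34, -1.09 and -0.99. For *Atp5l*, the study found no statistical difference by real-time RT-PCR. The higher one was *Atp5g2*, which encodes subunit c of the rotor ring, at 0.60 (adjusted p = 0.272, limma). No head gene reached a fold change as low as that of 5 of these genes, which include the mitochondrially encoded *mt-Atp6* and *mt-Atp8* at -0.83 and -0.74. The median of the head was 0.36 above that of the 13 genes, a difference that includes the mitochondrially encoded pair. The difference of their mean log2 levels within a library was -1.50, -1.64 and -1.43 in oEV-ctrl and -1.12, -1.09 and -1.43 in oEV-EMT, which overlapped by a narrow margin. Without oEV-ctrl 2 the difference of the medians was 0.13, and without oEV-EMT 2 it was 0.19.

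**Figure D3:**
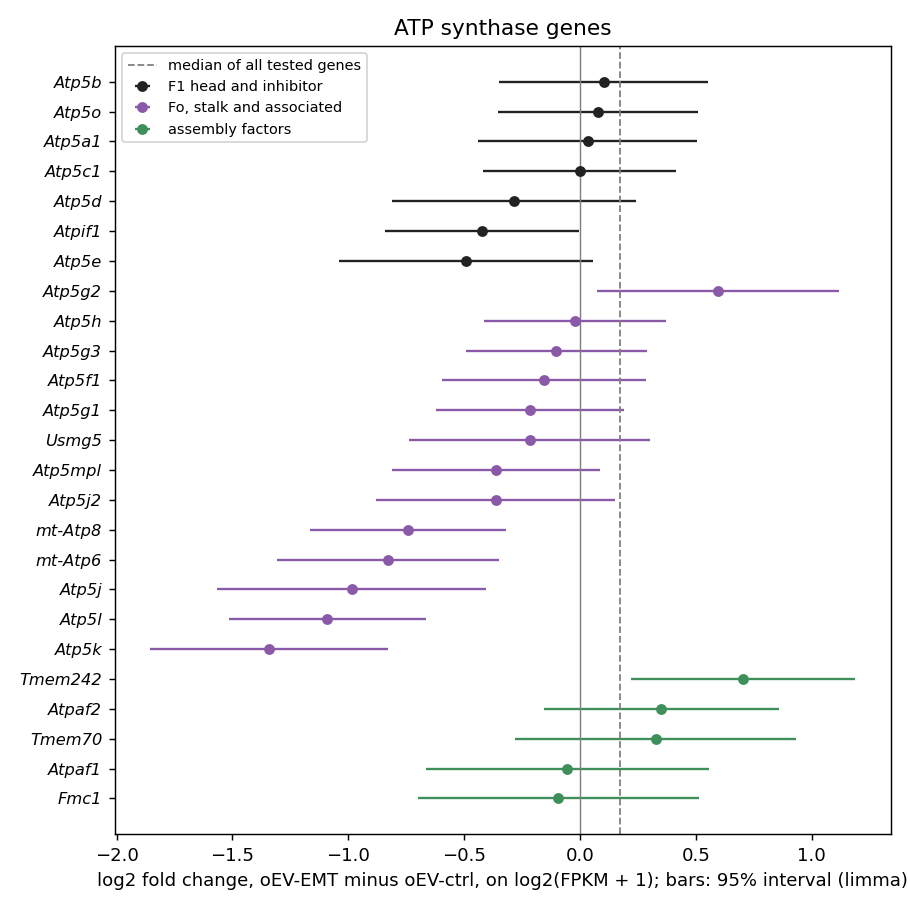
Log2 fold change on log2(FPKM + 1), oEV-EMT minus oEV-ctrl, of the ATP synthase genes, with 95% intervals from limma and a dashed line at the median of all tested genes (0.17). The 7 head genes (black) lie between -0.49 and 0.10, within the span of the Fo and stalk genes (purple, -1.34 to 0.60), and *Atpif1* is the only head gene whose interval does not include 0.

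Of 5 genes for assembly factors of the enzyme, 0 were lower and 1 was higher without overlap between groups, which is close to the share of all tested genes (4.34% and 18.1%). *Atpaf1* and *Atpaf2*, chaperones of the beta and alpha subunits, had log2 fold changes of -0.056 and 0.35. The one without overlap was *Tmem242*, which helps to assemble the c ring, with 48.2, 48.3 and 39.3 FPKM in oEV-ctrl and 61.3, 71.8 and 91.9 FPKM in oEV-EMT, a log2 fold change of 0.70 (SE 0.22, adjusted p = 0.194 from limma). Among 8 carriers, porins and kinases that move or buffer the substrates of the enzyme, 1 did not overlap, no more than the 22.4% of all tested genes. This was the phosphate carrier *Slc25a3*, with a log2 fold change of -0.40 (SE 0.20, adjusted p = 0.361 from limma). The adenine nucleotide carriers *Slc25a4* and *Slc25a5* were at 0.26 and 0.018. For comparison, the 61 nuclear genes of complexes I to IV had a relative median of -0.19, close to that of the head, with 44 below the median of all genes.

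Over the 6 libraries, the genes whose pattern was most like the mean of the head genes were *Morf4l1-ps1* (r = 0.998), *Gsta4* (r = 0.989), *Gm10260* (r = 0.988), *Gm10146* (r = 0.986) and *Gm27597* (r = 0.984). These were the highest Pearson correlations of log2(FPKM + 1) among 5270 genes with a mean FPKM of at least 10, given as a description over 6 libraries that share their depth and scaling with the head genes. The head mean used here, over log2(FPKM + 1) with no library median subtracted, and each of these genes were lowest in oEV-EMT 3.

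Some measured properties of the libraries differed between the groups, and others overlapped. Mitochondrially encoded genes took 7.43%, 7.45% and 5.96% of the FPKM in oEV-ctrl and 3.93%, 4.05% and 4.84% in oEV-EMT. The summed FPKM of 8 trophectoderm markers was 3082 to 4836 in oEV-ctrl and 3136 to 4746 in oEV-EMT, most of it from the keratins *Krt8* and *Krt18*. Of the other 6, *Elf5* and *Eomes* had log2 fold changes of 0.67 and -0.39 with overlapping groups. The sum of 6 primitive endoderm markers also overlapped, with *Gata6* as its largest part. Of the 6, 2 were higher in oEV-EMT without overlap, against 18.1% of all tested genes. These were *Gata4* and *Sox7*, with log2 fold changes of 0.82 and 0.52. With overlapping groups, *Sox17* and *Pdgfra* were at 0.95 and 0.075, and *Gata6* and *Col4a1* at -0.19 and -0.067. The sum of 7 epiblast markers was 59.2 to 103 in oEV-ctrl and 106 to 147 in oEV-EMT, without overlap, mostly from *Nanog*, *Tdgf1* and *Pou5f1*. Of the 7, 3 were higher in oEV-EMT without overlap, against 18.1% of all tested genes. These were *Nanog*, *Fgf4* and *Pou5f1*, with log2 fold changes of 1.11, 0.99 and 0.97. With overlapping groups, *Tdgf1* and *Klf2* were at 0.32 and 0.071, and *Sox2* and *Esrrb* at -0.32 and -0.061. Markers of other cells were low. The 7 cumulus and granulosa markers, of which 2 were at 0 in every library and 1 reached 1 FPKM in any, summed to 0.981 to 1.11 in oEV-ctrl and 1.52 to 2.64 in oEV-EMT. Of 6 oocyte transcripts none was at 0 in every library, and they summed to 2.35 to 3.34 and to 3.86 to 6.93, while 4 oviduct markers summed to 0.349 or less and 3 blood markers to 2.22 or less. The cumulus and oocyte sums were thus higher in every oEV-EMT library. Of the genes in these lists that were tested, *Amhr2* and *Zp3* were higher without overlap, at 0.63 and 0.79. With overlapping groups, *Zp2* and *Hba-a1* were at 0.50 and 0.35. The part of any of these in the values of the head genes was not tested.

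Transcript length also varied among the members. The longest coding transcripts of *Atp5e* and *Atpif1*, at 421 and 539 bases, were the shortest of the 7, followed by *Atp5o* (838), *Atp5d* (1410), *Atp5c1* (1735), *Atp5b* (1916) and *Atp5a1* (2674). The 1174 tested genes with a longest transcript of up to 600 bases had a relative median of -0.14. Over all 11639 genes with a length, however, the Spearman correlation of log2 fold change with transcript length was -0.11. Longer genes thus tended to be slightly lower. With the trend of each library against transcript length removed, the log2 fold change was -0.38 for *Atp5d*, -0.36 for *Atp5e*, -0.35 for *Atpif1*, -0.12 for *Atp5c1*, -0.042 for *Atp5a1*, -0.012 for *Atp5b* and 0.059 for *Atp5o*. *Atp5e*, *Atpif1* and *Atp5o* thus came nearer to 0, *Atp5d* and *Atp5c1* went further below it, and *Atp5d* became the lowest. *Atp5a1* and *Atp5b*, at 0.032 and 0.10 as reported, changed sign. The relative median of the head genes moved from -0.17 to -0.28.

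**Figure D4:**
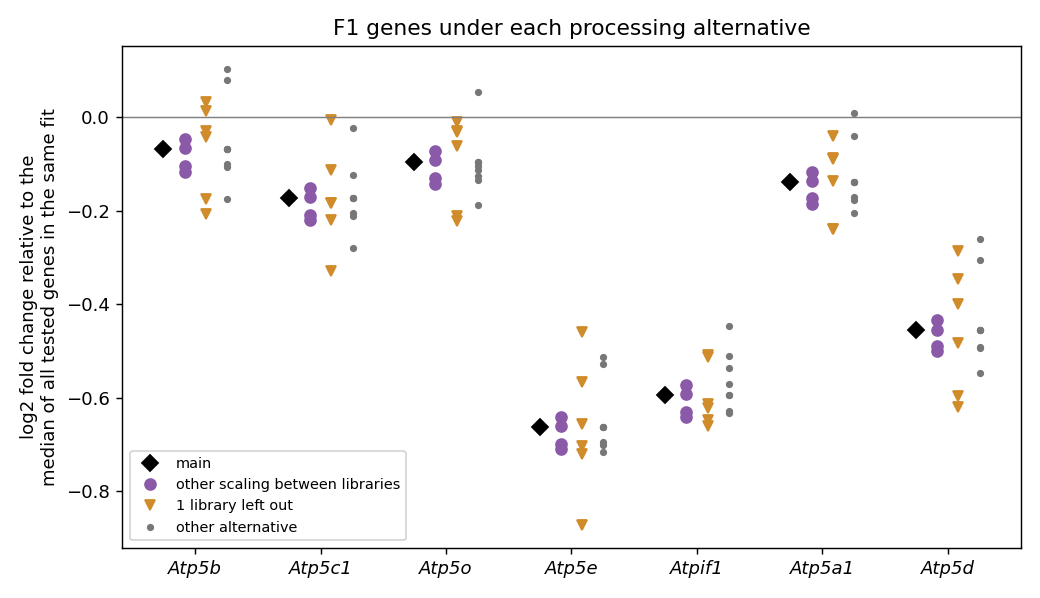
Log2 fold change of each head gene relative to the median of all genes tested in the same fit, with a black diamond for the reported value, purple circles for other scalings, orange triangles with 1 library left out and grey points for other alternatives. *Atpif1* (-0.66 to -0.45), *Atp5e* (-0.87 to -0.46), *Atp5d* (-0.62 to -0.26) and *Atp5c1* (-0.33 to -0.0060) stay below 0 under each of the 18 alternatives. *Atp5b* reaches 0.10, *Atp5o* 0.054 and *Atp5a1* 0.0097.

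The gene starts of the members were looked at for shared sequence motifs. RefSeq start windows on GRCm38.p6, of 300 bases that end 50 bases after a gene's start, were found for 6 of the 7 genes. The CCAAT box (CCAAT on either strand) was present in 3 of the 6, against 37.4% of 32851 windows, and the GC box (GGGCGG on either strand) in 3 of the 6, against 35.7%. The other motifs searched were rarer. The ETS core (CCGGAAG), NRF1 core (TGCGCA) and E-box (CACGTG) were each in 1 of the 6, against 8.86%, 7.76% and 7.15%. The YY1 core (AAGATGG) and TATA box (TATAAA) were in 0 of the 6, against 6.34% and 13.6%. The window of *Atpif1*, 1 of the 3 with a GC box, starts from a RefSeq gene start 1755 bases from the nearest start of a GENCODE coding transcript of the gene. Those of *Atp5b*, the member with the highest level and 5 CCAAT motifs, and of *Atp5e*, the member with the lowest fold change and 2 CCAAT motifs, are printed for comparison, with CCAAT on either strand in capitals. The first lies at chr10:128083057-128083356 on the plus strand and the second at chr2:174464052-174464351 on the minus strand.
*Atp5b* promoter: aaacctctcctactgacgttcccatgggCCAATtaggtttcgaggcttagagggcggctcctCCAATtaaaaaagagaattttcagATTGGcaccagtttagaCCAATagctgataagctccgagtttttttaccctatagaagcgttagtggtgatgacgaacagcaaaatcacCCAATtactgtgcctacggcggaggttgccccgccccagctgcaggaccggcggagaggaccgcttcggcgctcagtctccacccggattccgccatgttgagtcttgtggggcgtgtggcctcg
*Atp5e* promoter: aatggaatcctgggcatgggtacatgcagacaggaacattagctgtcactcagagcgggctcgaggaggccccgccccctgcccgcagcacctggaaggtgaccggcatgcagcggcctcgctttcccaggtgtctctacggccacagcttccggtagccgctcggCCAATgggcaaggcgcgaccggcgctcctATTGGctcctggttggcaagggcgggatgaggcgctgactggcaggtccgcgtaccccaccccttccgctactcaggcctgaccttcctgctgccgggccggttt
These matches describe the letters in the windows, and binding was not measured.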

How the data were processed

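RNA from 6 pools of 10 blastocysts (3 oEV-EMT, 3 oEV-ctrl) was selected for polyadenylated transcripts, and the reads were aligned to the genome (mm10 per the labels) and assembled along a reference with StringTie. The aligner and software versions are not given in the sources used here. The authors deposited a table of 55774 entries, 287 of them unannotated, with 1 value per gene and library. Its values were taken as FPKM, normalized by the authors for length and library size. The methods name TPM, but each library sums to more than 1000000. FPKM hold no read totals, so the depth is unknown apart from the relative steps between values.

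The 7 members and all gene lists were chosen with earlier results of these data known. Of the identifiers, 55227 matched GENCODE M21 (GRCm38), which gave names, lengths and coordinates. A gene was tested if 3 or more libraries had an FPKM of 1 or more (11924 genes). The model, in limma 3.58.1 under R 4.3.3, took log2(FPKM + 1) with the group as its only term and a trended and robust variance. The pseudocount of 1 understates changes of low genes. P-values were adjusted by Benjamini-Hochberg over all tested genes, and genes were called at an adjusted p-value of 0.05 and an absolute log2 fold change of 1. For ratios, an exact permutation test (two-sided) was used, with a smallest p of 0.1. The procedure was tested on simulated data. No libraries held identical values. Named genes were all members, genes of the listed enzyme parts by role, the 5 most alike in pattern and genes sharing sequence. Sharing was counted over stretches of 50 bases on either strand, and genes with at least 10% of the stretches of either one of a pair in common were added in 1 alternative. Promoter windows are from RefSeq (GRCm38.p6). Further alternatives covered the scaling, filter, pseudocount, variance model, quality weights, length offset (loess, span 0.5), replicate block, thresholds and leaving out each library. Plots were made in Python 3.11.15 (matplotlib 3.10.9). Real-time RT-PCR, embryo counts and fluorescence were not analysed here.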

Additional observations from a re-analysis of the deposited data

How the results depend on the processing

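None of the 7 head genes was called under any of the 20 alternatives (limma, smallest adjusted p from 0.122 with quality weights to 0.674 without a filter). Of all tested genes, 0 were called as reported, 104 with libraries weighted by quality, 21 with the replicate block, 17 without oEV-ctrl 3, 4 without oEV-EMT 1 and 1 without oEV-EMT 3. At an adjusted p of at most 0.1 with no fold change threshold, 22 genes passed. The median of the head genes relative to all genes was -0.17. It moved to -0.024 without a filter, where 31842 genes are tested, and to -0.28 with a transcript length offset, and lay between -0.29 and -0.14 with 1 library left out. The difference from the Fo and stalk genes (0.36) was 0.20 with the length offset and 0.13 to 0.40 with 1 library left out. The log2 ratio of *Atpif1* to *Atp5b* (-0.53) lay between -0.66 and -0.33 with 1 library left out, where the smallest exact p is 0.2. Except where an alternative's own construction shows it, the cause of these shifts was not tested.

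*Atpif1*, *Atp5e* and *Atp5d* kept a negative log2 fold change under each of 18 alternatives. That of *Atpif1* lay between -0.69 and -0.30, with an unadjusted p of at most 0.05 in 6 of the 18 and adjusted p-values of 0.194 to 0.674 (limma). For *Atp5e* the range was -0.76 to -0.25, with 4 of the 18 (adjusted p 0.122 to 0.709). The other 4 genes, whose reported values lie near 0, changed sign in places. *Atp5a1*, *Atp5b* and *Atp5o* were at -0.16, -0.096 and -0.12 after median-of-ratios scaling and at -0.23, -0.16 and -0.19 after upper quartile scaling. *Atp5c1* was at 0.092 after scaling to a total of 1000000, at 0.035 after the same without unannotated entries and mitochondrially encoded genes, and at 0.036 with quality weights, under which *Atp5o* was at -0.030. With the length offset *Atp5a1* was at -0.042 and *Atp5b* at -0.012. With 1 library left out, *Atp5a1* lay between -0.090 and 0.17, *Atp5b* between -0.045 and 0.18, *Atp5c1* between -0.12 and 0.13 and *Atp5o* between -0.063 and 0.15. Libraries of the same replicate number had correlations of deviations of 0.119, -0.0442 and 0.0388. Not every library correlated best with its own number. With 3 libraries a group, these values cannot decide whether libraries of the same number share a culture batch. Under the replicate block 0 head genes were called, and 0 had an unadjusted p of at most 0.05. Depth is not given in FPKM, and 3 libraries a group leave 95% intervals wider than most of these differences.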
